A study of Rattus norvegicus with 4 samples.

Results

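The transcripts of 10 Polycomb repressive complex genes (*Ezh1*, *Ezh2*, *Eed*, *Suz12*, *Jarid2*, *Mtf2*, *Ring1*, *Rnf2*, *Pcgf6* and *Cbx7*) were examined in rat embryonic stem cells (ESCs) with and without *Thop1*, the gene of the peptidase thimet oligopeptidase. These genes were picked by symbol from the 34773 genes of the count table, and each symbol had a row. Poly(A) RNA had been sequenced in 4 libraries, of which 1 was WT and 3 came from separate *Thop1*-KO subclones (#1, #2 and #3), to ask what the loss of *Thop1* changes in the transcriptome. The WT cells were DA-5-3 GFP, rat ESCs of the line DA-5-3 that carry a GFP reporter in *Rex1*. The subclones were made from these cells by transfection of Cas9 with guide RNAs and puromycin selection, so all 4 libraries share the reporter, and each subclone descends from 1 edited clone. The study's methods describe rat ESC culture on feeder cells in 2i/LIF, which combines inhibitors of MEK and GSK3 with the cytokine LIF. The ploidy is described in different ways, since the series description speaks of haploid cells and the study uses DA-5-3 as a diploid line.

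Polycomb proteins keep developmental genes silent through marks on histones. Polycomb repressive complex 2 (PRC2) methylates lysine 27 of histone H3, with EZH2 or EZH1 as the enzyme, EED and SUZ12 as its core partners, and accessory subunits such as JARID2 and MTF2 that help to bring it to CpG-rich DNA. Polycomb repressive complex 1 (PRC1) ubiquitinates histone H2A through RING1 or RNF2 (RING1B), and it exists in canonical forms that read the PRC2 mark through a CBX protein and in variant forms set by the PCGF subunit. In ESCs, CBX7 is the main CBX protein of canonical PRC1, and PCGF6 marks the variant complex PRC1.6, which silences germline genes.

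The counts on genes summed to between 15405499 and 17936544 per library. In CPM, which are counts scaled by library size with TMM normalization, *Thop1* itself was at 110 in #1, 92.5 in #2 and 149 in #3 against 370 in WT, a log2 fold change of -1.66 (standard error 0.29, edgeR adjusted p = 0.0187). Of 10 ESC markers, 9 had a row and were tested, and edgeR called 2 higher (*Esrrb* and *Tfcp2l1*) and 1 lower (*Utf1*) in *Thop1*-KO. In #1, #2 and #3, *Esrrb* reached 330.1, 286 and 328 CPM against 15.9 CPM in WT, *Tfcp2l1* reached 231, 254 and 279 against 34.5, and *Utf1* reached 622, 405 and 626 against 1566. *Pou5f1*, the most highly expressed of the 9, did not pass, at 4842, 3889 and 4776 CPM in the subclones and 4794 CPM in WT. Of 12 fibroblast markers, chosen because feeder cells were used, *Thy1*, *Lum* and *Dcn* had 0 counts in every library, and 8 were tested. Of the 12 markers, 11 had a row, and their summed level was 330 CPM in #1, 666 CPM in #2, 421 CPM in #3 and 209 CPM in WT, most of it from *Col1a1*. None of the 8 was called by edgeR, although 2 had an unadjusted p under 0.05 and DESeq2 called 1. Among these 8 fibroblast markers, WT lay below the subclones in 6, above them in 1 and among them in 1. Their median log2 fold change was 1.32, against 0.06 over all genes tested. Of 9 primitive endoderm markers, 8 were tested and none was called by edgeR, with 5 at an unadjusted p under 0.05 and 1 called by DESeq2. The summed level of the 9 was 1391, 1692 and 1991 CPM in the subclones against 964 CPM in WT, most of it from *Lama1*. Of the 8 endoderm markers tested, WT lay below the subclones in 6 and above them in 2, where it lay outside them in 75.7% of all genes tested. Of all 15028 genes tested, edgeR called 8.62% higher and 5.17% lower, and 5110 had an unadjusted p under 0.05. DESeq2 called 21.5% of the genes it tested. The part of feeder and primitive endoderm cells in the differences given below was not tested.

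Promoter windows, 250 bases before and 50 after the gene start in RefSeq (GRCr8), were found for 9 of the 10 genes, all but *Ezh1*. The windows of *Ezh2* (chr4:77687134-77687433, minus strand) and *Jarid2* (chr17:20161921-20162220, minus strand) are shown because these were the members that passed the test between *Thop1*-KO and WT. Capitals mark matches to 3 of the motifs searched, namely CCAAT on either strand, the E2F-type letters TTGGCGC and the element TATAAA.
Ezh2: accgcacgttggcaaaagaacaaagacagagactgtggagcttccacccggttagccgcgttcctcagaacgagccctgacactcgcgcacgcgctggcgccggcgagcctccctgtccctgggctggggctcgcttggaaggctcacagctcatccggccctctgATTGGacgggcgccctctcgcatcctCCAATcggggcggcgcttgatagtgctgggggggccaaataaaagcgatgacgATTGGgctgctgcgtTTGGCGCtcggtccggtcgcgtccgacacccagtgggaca
Jarid2: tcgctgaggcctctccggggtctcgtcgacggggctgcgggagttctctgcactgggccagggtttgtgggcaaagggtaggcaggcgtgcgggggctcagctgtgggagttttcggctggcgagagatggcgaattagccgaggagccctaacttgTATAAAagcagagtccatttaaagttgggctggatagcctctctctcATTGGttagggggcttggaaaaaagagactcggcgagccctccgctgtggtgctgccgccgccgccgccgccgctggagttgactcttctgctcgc

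The window of *Ezh2* held 3 matches to CCAAT and, within the 50 bases after the start, 1 match to TTGGCGC, a form of the E2F site. On both strands, TTGGCGC was present in 2.26% and CCAAT in 37.5% of the 33469 promoter windows of the same length. The window of *Jarid2* held 1 match to CCAAT and 1 match to TATAAA, which 14.2% of all windows held. The other motifs searched were TTCGCGC (1.51% of windows), CACGTG (6.42%) and CCATNTT (18.3%), and none of them matched in these windows. Among the other members, CCAAT matched in *Eed*, *Suz12* and *Cbx7*, CCATNTT in *Mtf2*, *Rnf2* and *Cbx7*, and none of the motifs in *Ring1* and *Pcgf6*. All 9 windows held more CpG dinucleotides than the median of 7 over all windows, with 15 in *Eed*, 22 in *Jarid2*, 30 in *Ezh2* and up to 38 in *Suz12* and *Ring1*. Of all windows, 68% held fewer than *Eed*, 79% fewer than *Jarid2*, 89.7% fewer than *Ezh2* and 95.8% fewer than *Suz12* and *Ring1*. These matches describe the letters only, and binding was not measured.

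Of the 10 members, 1 was lower (*Ezh2*) and 1 was higher (*Jarid2*) in *Thop1*-KO than in WT at an adjusted p under 0.05 (quasi-likelihood test of edgeR, corrected by Benjamini-Hochberg), and 8 did not pass. Over all 15028 genes tested, 13.8% passed, 8.62% as higher and 5.17% as lower in *Thop1*-KO, so the share of the members was near that of all genes. DESeq2 also called 2 members, the same genes, where it called 21.5% of all genes. The WT library lay below all 3 subclones in 6 members, above all 3 in 2 members (*Ezh2* and *Pcgf6*) and among them in 2 (*Eed* and *Ring1*). It lay outside the subclones in 75.7% of all genes tested. The median log2 fold change was 0.58 over the members and 0.06 over all genes tested. An unadjusted p under 0.05 was reached by 4 members and by 5110 of the 15028 genes tested. The number of members that edgeR called was 1 without #1, 4 without #2 and 0 without #3 (2 at an unadjusted p under 0.05). Over all 15028 genes tested, it called 1937 without #1, 5572 without #2 and 418 without #3. WT had 1 library, so the spread comes from the 3 subclones, and the p-values measure the spread between subclones only. With 3 libraries on one side and 1 on the other, the smallest one-sided p of an exact permutation is 0.25. In these bulk libraries, fewer cells that express a gene and less RNA per cell cannot be told apart.

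**Figure D1:**
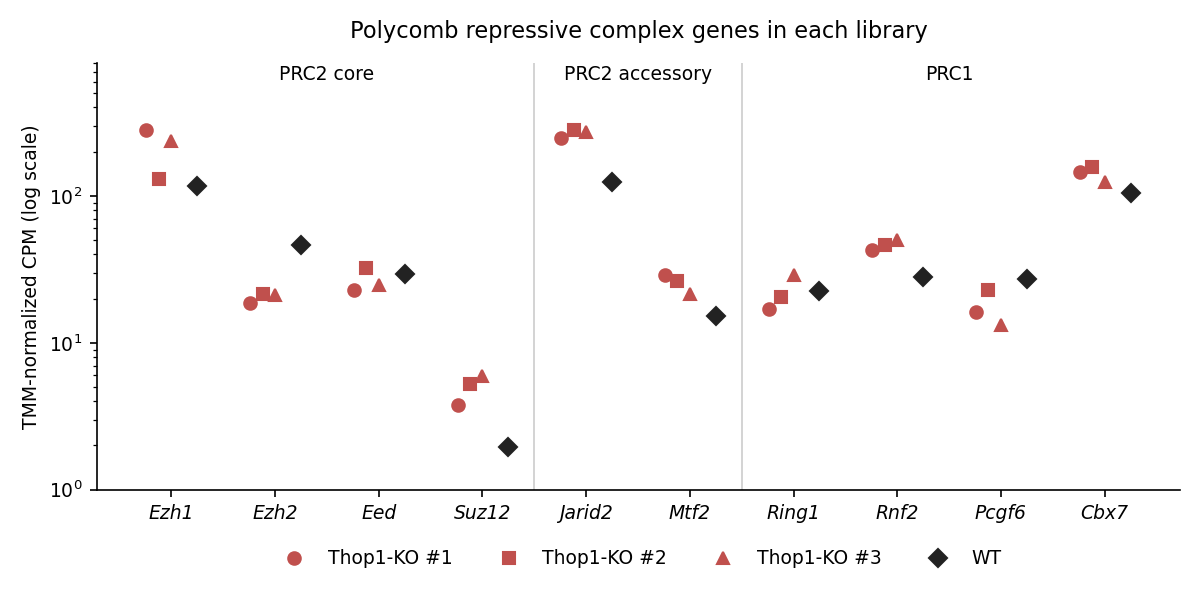
The level of each of the 10 genes in TMM-normalized CPM on a log scale, with 1 red symbol per *Thop1*-KO subclone and a black diamond for WT. The WT diamond lies above all 3 subclones for *Ezh2* and *Pcgf6*, and *Suz12* is the lowest of the 10 in every library.

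*Ezh2* (ENSRNOG00000006048, chromosome 4, 77284404 to 77347011, minus strand, protein coding) encodes the main methyltransferase of PRC2 in dividing cells. It was at 18.5 CPM in #1, 21.5 CPM in #2 and 21.2 CPM in #3, against 46.2 CPM in WT. The subclones lay close together and all below WT. Their mean was 20.4 ± 1.63 CPM (SD, n = 3), which is 44.2% of WT. The log2 fold change was -1.18 (standard error 0.27, 95% interval -1.82 to -0.53, edgeR adjusted p = 0.0368), and DESeq2 gave an adjusted p of 0.0124. The call was lost without #1 (-1.13, edgeR adjusted p = 0.0618) and without #3 (-1.20, edgeR adjusted p = 0.166).

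*Ezh1* (ENSRNOG00000020336, chromosome 10, 89104027 to 89130339, minus strand, protein coding) encodes the other PRC2 methyltransferase, which is usually the more abundant one in cells that no longer divide. It was at 280.1 CPM in #1, 129.8 CPM in #2 and 236 CPM in #3, against 116 CPM in WT. Subclone #2 lay near WT, and #1 and #3 lay well above both. Their mean was 215 ± 77.2 CPM (SD, n = 3). Its log2 fold change was 0.89 (95% interval -0.15 to 1.94) and did not pass the test (edgeR adjusted p = 0.199). Without #2 it was 1.15 and passed (edgeR adjusted p = 0.00169).

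*Eed* (ENSRNOG00000017509, chromosome 1, 154189260 to 154216340, minus strand, protein coding) encodes the subunit that binds the methylated histone. It was at 22.8, 32.1 and 24.9 CPM in #1, #2 and #3 and at 29.3 CPM in WT, so that WT lay among the subclones. Its log2 fold change was -0.14 (95% interval -0.90 to 0.62, edgeR adjusted p = 0.780). *Suz12* (ENSRNOG00000058663, chromosome 10, 67325347 to 67369668, plus strand, protein coding), the scaffold subunit, was the lowest of the 10 genes, with 63, 92 and 106 counts in #1, #2 and #3 and 29 counts in WT. These counts are 3.76, 5.20 and 5.90 CPM against 1.95 CPM, and WT lay below every subclone. The log2 fold change of 1.34 had a wide 95% interval, from 0.11 to 2.57, and did not pass (edgeR adjusted p = 0.123).

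*Jarid2* (ENSRNOG00000045918, chromosome 17, 20184245 to 20364714, minus strand, protein coding) encodes the accessory subunit that defines the PRC2.2 form and stimulates the enzyme. It was at 248 CPM in #1, 279.6 CPM in #2 and 274 CPM in #3, against 123 CPM in WT. The subclones lay within a narrow range, with a mean of 267 ± 16.8 CPM (SD, n = 3), and all lay above WT. The fold was 2.16 in edgeR, a log2 fold change of 1.11 (standard error 0.24, 95% interval 0.55 to 1.68, adjusted p = 0.0303), and DESeq2 gave an adjusted p of 0.00394. Without #3 the log2 fold change was 1.10 and the call was lost (edgeR adjusted p = 0.148), and with a correction for gene length it was 0.82 (edgeR adjusted p = 0.0613).

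*Mtf2* (ENSRNOG00000000075, chromosome 14, 2658267 to 2700977, minus strand, protein coding) encodes a Polycomb-like protein of the PRC2.1 form, which binds unmethylated CpG-rich DNA. It was at 29.0, 26.4 and 21.5 CPM in #1, #2 and #3 and at 15.2 CPM in WT, which lay below every subclone. *Mtf2* had a log2 fold change of 0.75 (95% interval -0.04 to 1.55) that did not pass (edgeR adjusted p = 0.165).

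Among the PRC1 genes, *Rnf2* (ENSRNOG00000002454, chromosome 13, 68830620 to 68858809, minus strand, protein coding) encodes the main ubiquitin ligase of PRC1 in ESCs. It was at 42.5, 46.2 and 49.8 CPM in #1, #2 and #3 and at 27.9 CPM in WT, below every subclone. *Rnf2* had a log2 fold change of 0.72 (95% interval 0.06 to 1.39, edgeR adjusted p = 0.123). Its paralog *Ring1* (ENSRNOG00000000467, chromosome 20, 3812287 to 3815834, minus strand, protein coding) was at 17.1, 20.6 and 28.7 CPM in the subclones and at 22.6 CPM in WT, which lay among them. *Ring1* had a log2 fold change of -0.029 (95% interval -0.92 to 0.87, edgeR adjusted p = 0.965), and its sign turned when the libraries were scaled by size alone (0.042) and without #1 (0.11) or #2 (0.02).

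*Pcgf6* (ENSRNOG00000020250, chromosome 1, 266811420 to 266830976, minus strand, protein coding), the defining subunit of PRC1.6, was at 16.2, 22.9 and 13.3 CPM in #1, #2 and #3 and at 26.98 CPM in WT. All subclones lay below WT, with #2 nearest to it. *Pcgf6* had a log2 fold change of -0.63 (95% interval -1.52 to 0.26, edgeR adjusted p = 0.273), and without #2 it was -0.87 and passed (edgeR adjusted p = 0.0392). *Cbx7* (ENSRNOG00000016875, chromosome 7, 121136058 to 121153383, minus strand, protein coding) was at 147, 157 and 124 CPM in the subclones and at 105 CPM in WT, with WT below every subclone. Its log2 fold change was 0.44 (95% interval -0.17 to 1.06, edgeR adjusted p = 0.263). For the members that did not pass, the intervals still hold changes of up to 5.95-fold (*Suz12*), so equal levels were not shown.

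**Figure D2:**
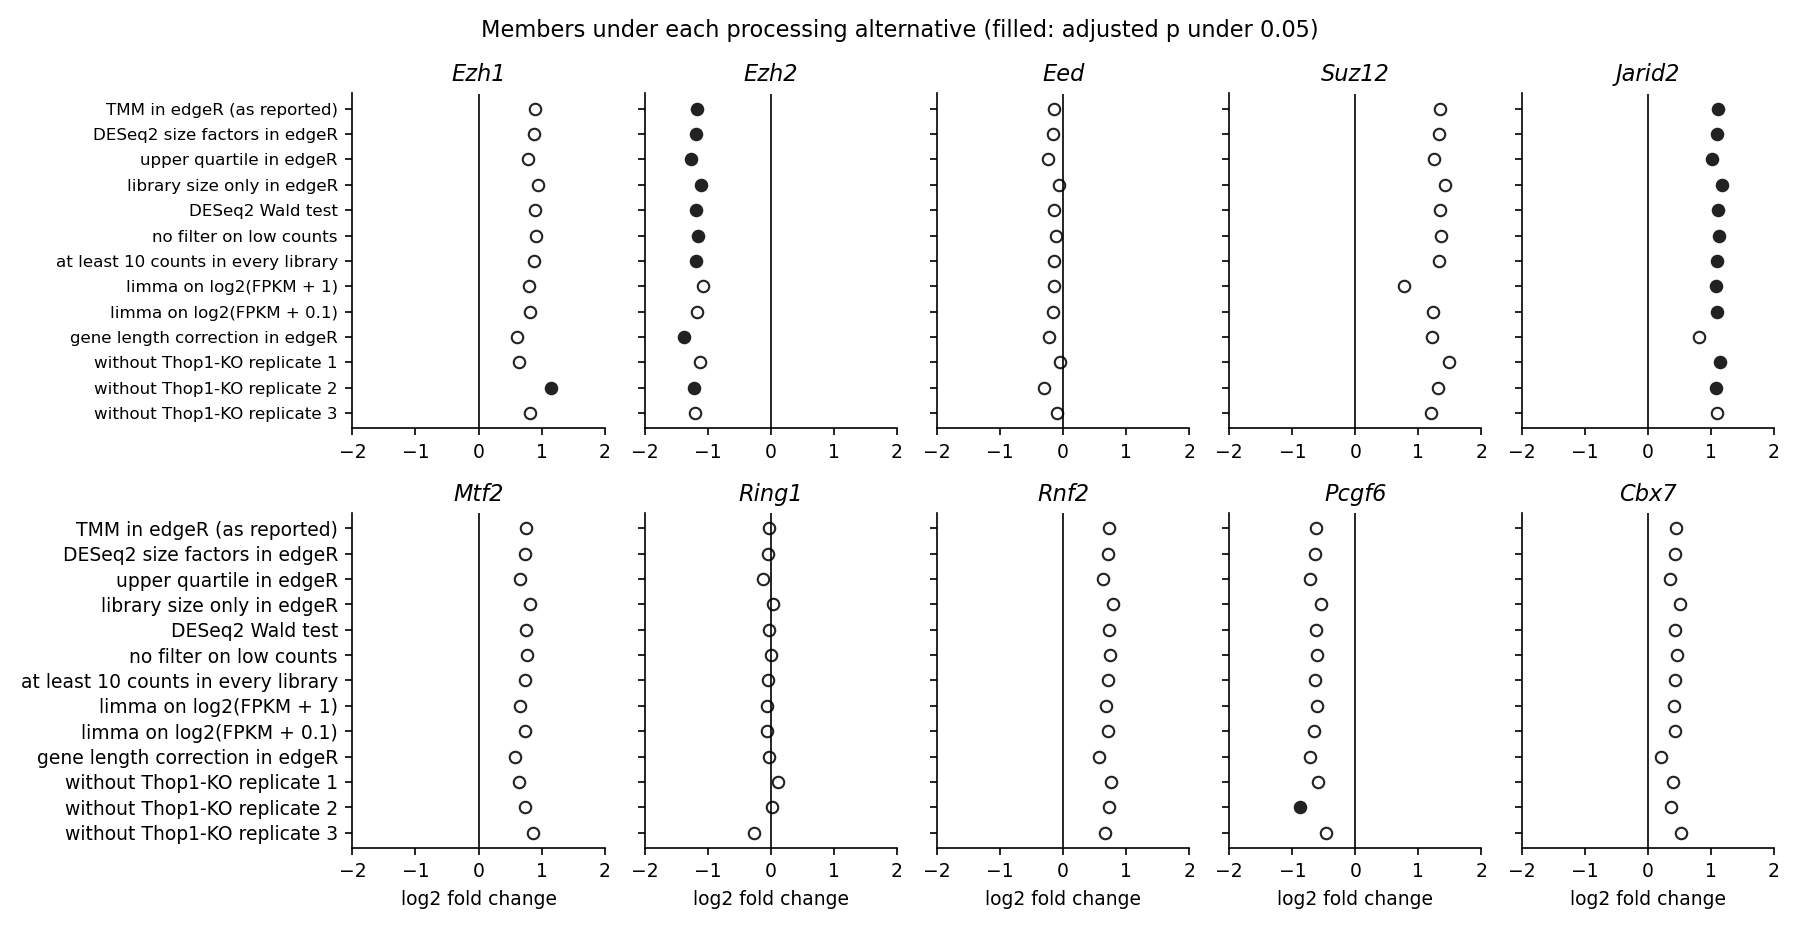
The log2 fold change (*Thop1*-KO minus WT) of each of the 10 genes under each way of processing, with a filled point where the adjusted p was under 0.05. *Ezh2* lies below 0 and *Jarid2* above 0 in every setting, while *Ezh1* and *Pcgf6* are filled only without #2.

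Levels of different genes were set side by side in FPKM, which is per length. *Jarid2* was at 58.3, 65.3 and 63.1 FPKM in #1, #2 and #3 and 28.8 FPKM in WT. *Ezh1* was at 65.5, 30.2 and 54.1 FPKM in #1, #2 and #3 and 26.96 FPKM in WT, and *Ezh2* was at 6.59, 7.60 and 7.40 FPKM against 16.3 FPKM. *Ezh1* therefore took 90.9%, 79.9% and 88.0% of the summed FPKM of the 2 enzyme genes in the subclones and 62.3% in WT. It was above *Ezh2* in every library, and the ratio of *Ezh1* to *Ezh2* was 9.94, 3.97 and 7.31 in the subclones against 1.65 in WT. Of the ligase genes, *Rnf2* took 63.9%, 61.4% and 55.2% in the subclones and 46.8% in WT, so *Ring1* was the higher of the pair only in WT among these 4 libraries.

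*Cbx7* was above *Cbx2*, which encodes an alternative CBX protein of canonical PRC1, in every library, with a ratio of 2.63, 3.10 and 2.72 in the subclones against 3.97 in WT. Its ratio to *Cbx6* was 4.41, 3.40 and 3.80 in the subclones and 3.93 in WT, and its ratio to *Cbx8* was 14.3, 9.18 and 9.61 against 10.5, so that WT lay among the subclones in both. *Pcgf6* took 13.4%, 16.0% and 11.5% of the PCGF genes in the subclones and 20.4% in WT, and *Pcgf2*, which encodes a subunit of canonical PRC1, took the largest share in every library. The ratio of *Jarid2* to *Mtf2*, which mark the alternative forms of PRC2, was 5.16, 6.40 and 7.67 in the subclones and 4.89 in WT. For the share of *Pcgf6* and the ratios of *Cbx7* to *Cbx2* and of *Jarid2* to *Mtf2*, WT lay outside the subclones. The ratios carry no test, since they come from 3 libraries against 1.

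**Figure D3:**
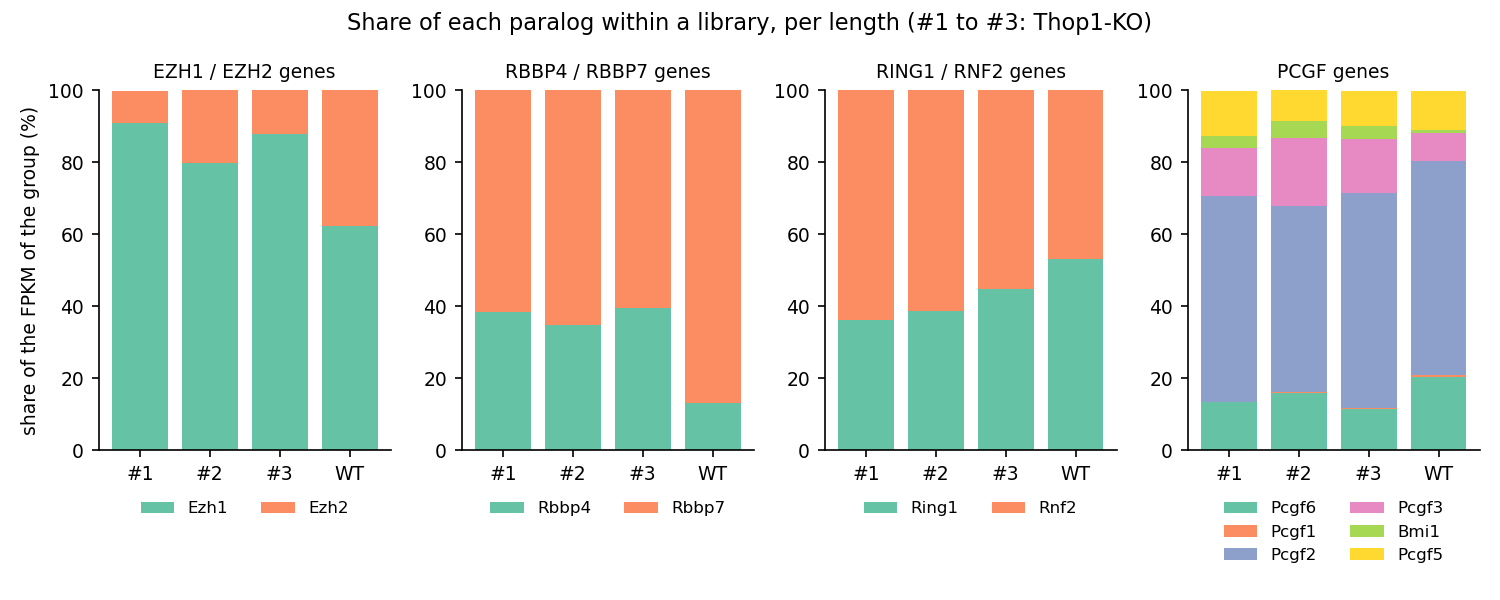
Stacked bars of the share (%) that each paralog took of the summed FPKM of its group in each library, #1 to #3 being *Thop1*-KO. *Ezh1* fills 79.9% to 90.9% of the EZH bar in the subclones and 62.3% in WT, and *Rbbp4* fills 34.9% to 39.4% against 13.1%.

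A wider list of 44 other genes of the Polycomb system was examined, of which 41 had a row and 39 were tested. Of these 39, 6 were higher and 1 was lower in *Thop1*-KO, with a median log2 fold change of 0.43, where 8.62% of all genes tested were called higher and 5.17% lower. DESeq2 called 12, where it called 21.5% of all genes. In the PRC2 core, the histone chaperone genes moved in opposite directions. *Rbbp4* was at 133, 123 and 129 CPM in the subclones and 58.9 CPM in WT (log2 fold change 1.12, edgeR adjusted p = 0.0338). *Rbbp7* was at 218, 234 and 203 CPM against 399 CPM (log2 fold change -0.87, edgeR adjusted p = 0.0421). Both encode subunits shared with other chromatin complexes. The share of *Rbbp4* in the summed FPKM of the pair was 38.3%, 34.9% and 39.4% in the subclones and 13.1% in WT.

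Of 5 other accessory PRC2 genes tested, 1 was higher, *Aebp2*, the partner of JARID2 in PRC2.2, at 5.37, 4.98 and 7.46 CPM against 1.41 CPM in WT (log2 fold change 2.06, edgeR adjusted p = 0.0475). *Epop*, the most highly expressed of those that did not pass, was at 343, 262 and 295 CPM against 187 CPM (log2 fold change 0.68, edgeR adjusted p = 0.115). Of 4 other PCGF genes tested, edgeR called 0, with 1 at an unadjusted p under 0.05 and 1 called by DESeq2, and the most highly expressed, *Pcgf2*, had a log2 fold change of -0.17 (edgeR adjusted p = 0.666).

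Of 8 other genes of canonical PRC1 reported here, edgeR called 0, with 1 at an unadjusted p under 0.05 and 1 called by DESeq2. The last was *Cbx2*, which had a log2 fold change of 0.94 and passed in DESeq2 (adjusted p = 0.0400) but not in edgeR (adjusted p = 0.0703). Of 11 other genes of variant PRC1, 1 was higher, *Fbrs*, at 16.6, 15.3 and 18.3 CPM against 6.06 CPM (log2 fold change 1.47, edgeR adjusted p = 0.0437). The span of *Fbrs* overlaps that of *Zfp629*, and whether reads of *Zfp629* entered the count of *Fbrs* was not tested. *L3mbtl2*, a subunit gene of PRC1.6 like *Pcgf6*, was at 429, 306 and 368 CPM in the subclones and 183 CPM in WT. Its log2 fold change of 1.01 passed in DESeq2 (adjusted p = 0.0178) but not in edgeR (adjusted p = 0.0562).

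Among the enzymes that remove the Polycomb marks, 2 of 7 tested genes of the H2A deubiquitinase PR-DUB were higher, where 8.62% of all genes tested were. *Bap1*, its catalytic subunit gene, was at 256, 239 and 238 CPM in the subclones and 81.3 CPM in WT (log2 fold change 1.59, edgeR adjusted p = 0.0137). Its partner *Asxl1* was at 68.4, 51.8 and 73.1 CPM against 27.1 CPM (log2 fold change 1.25, edgeR adjusted p = 0.0485). *Mbd6*, the most highly expressed that did not pass, had a log2 fold change of 0.43 (edgeR adjusted p = 0.431). Of the 7 PR-DUB genes, 4 had an unadjusted p under 0.05 in edgeR. DESeq2 called 4 of them, where it called 21.5% of all genes. Of the H3K27 demethylase genes, *Kdm6b* was at 31.2, 30.8 and 32.4 CPM against 7.60 CPM (log2 fold change 2.05, edgeR adjusted p = 0.0149), and *Kdm6a* had a log2 fold change of -0.13 (edgeR adjusted p = 0.801). WT lay outside the subclones in 33 of these 39 other genes, where it did so in 75.7% of all genes tested. Without #3, none of the 39 passed in edgeR (11 had an unadjusted p under 0.05), and over all genes the number called then fell to 418 from 2072. Without #1 edgeR called 2 of the 39, where it called 1937 of all 15028 genes tested. Without #2 it called 17 of the 39, where it called 5572 of all genes tested.

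**Figure D4:**
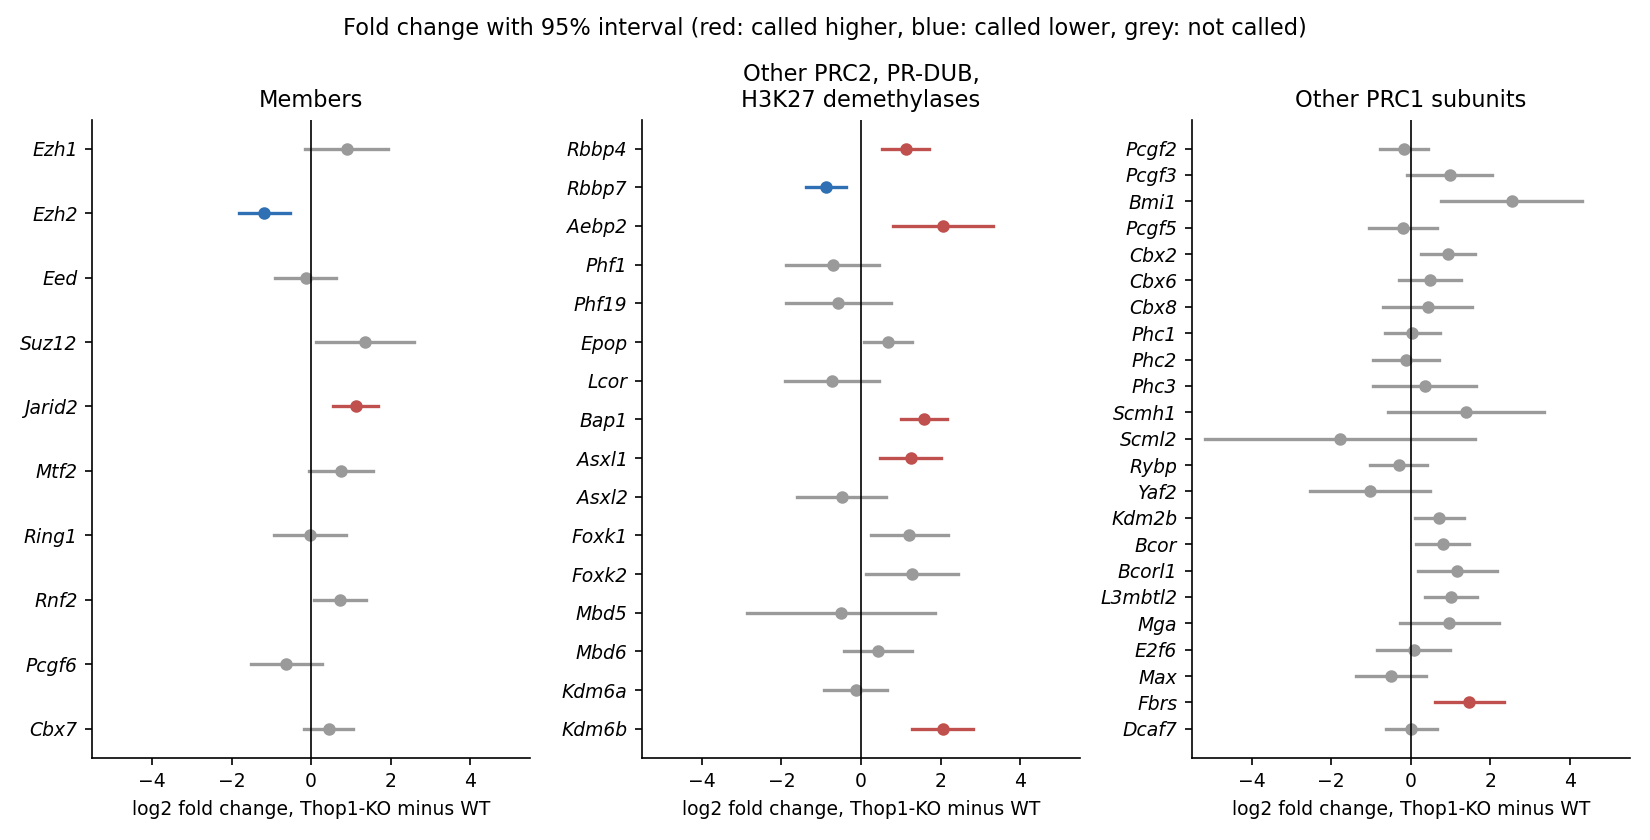
The log2 fold change (*Thop1*-KO minus WT) with its 95% interval from edgeR for the 10 members, the other PRC2, PR-DUB and demethylase genes, and the other PRC1 genes. Called genes are red (higher) or blue (lower), which are 1 red and 1 blue among the members and 6 red and 1 blue among the other genes.

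Genes that Polycomb complexes are known to silence were listed from general knowledge. Of 53 developmental regulators, 50 had a row and 25 were tested, and those with a row that were not tested had at most 10 counts in any library. The test called 1 of them higher, the growth factor gene *Igf2*, at 47.8, 104 and 64.2 CPM in the subclones and 14.3 CPM in WT (log2 fold change 2.33, edgeR adjusted p = 0.0328). Over all genes 8.62% were called higher. DESeq2 called 5, against 21.5% of all genes. WT lay outside the subclones in 20 of the 25 (below them in 14 and above them in 6), against 75.7% of all genes. *Tbx3*, the most highly expressed that did not pass, had a log2 fold change of 0.63 (edgeR adjusted p = 0.200). A gene enters the test when a single library holds enough counts, so these numbers do not describe the 53 genes.

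Of 18 germline genes known as targets of PRC1.6, 17 had a row and 11 were tested, and 2 were lower in *Thop1*-KO, where 5.17% of all genes were lower. *Dazl*, which encodes a germ cell RNA-binding protein, had 1, 8 and 4 counts in #1, #2 and #3 and 47 counts in WT (log2 fold change -3.64, edgeR adjusted p = 0.0434). The subclone counts lie under the minimum of 10, so *Dazl* entered the test only through the WT library, where it was high. A gene enters the test when a single library holds enough counts, so the 2 calls do not describe the 18 genes. *Stk31*, a testis kinase gene, had 30, 15 and 39 counts against 128 counts (log2 fold change -2.42, edgeR adjusted p = 0.0360). The cohesin gene *Stag3*, the most highly expressed that did not pass, was at 61.1, 24.7 and 42.8 CPM against 22.8 CPM (log2 fold change 0.91, edgeR adjusted p = 0.249). The calls of *Dazl* and *Stk31* were both lost without #3, where edgeR called 0 of the germline genes and 2 had an unadjusted p under 0.05, and *Igf2* was then not called either. Without #2, edgeR called 8 developmental and 5 germline genes, and without #1 it called 3 and 2. Over all 15028 genes tested, it called 5572 without #2, 1937 without #1 and 418 without #3.

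**Figure D5:**
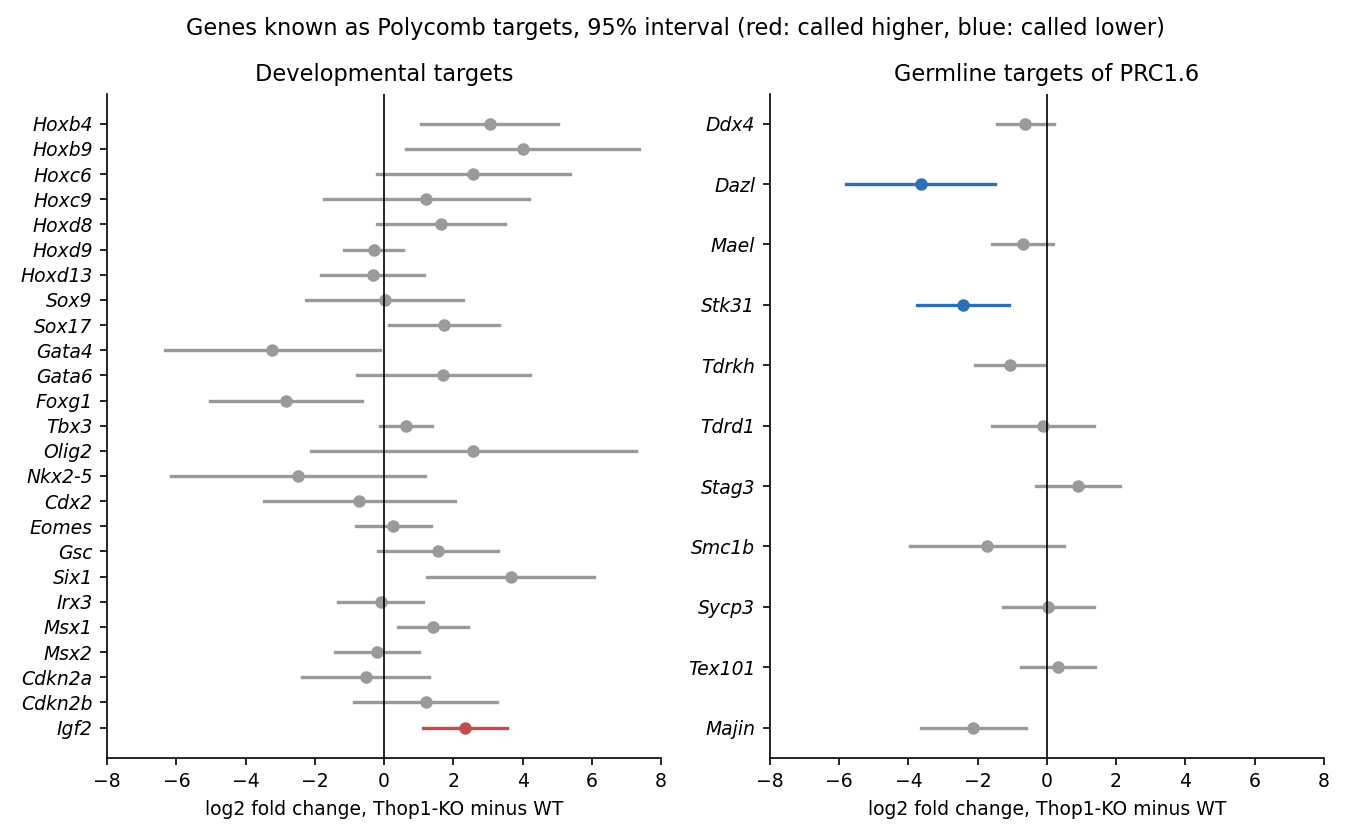
The log2 fold change (*Thop1*-KO minus WT) with its 95% interval for the tested developmental genes (left) and germline genes (right) known as Polycomb targets. *Igf2* is the red gene on the left, and *Dazl* and *Stk31* are the blue genes on the right.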

How the data were processed

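Poly(A) RNA of rat ESCs had been sequenced from 1 WT and 3 *Thop1*-KO libraries. Noise and adaptors were removed with the FASTX toolkit, and the submitters' processing notes name HISAT2 2.0.5 and featureCounts 1.5.0-p3. The genome build and the strand setting are not given in the sources used here. The authors deposited raw counts per gene and FPKM values.

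The counts were fitted in R 4.3.3 (edgeR 4.0.16). The filter filterByExpr (minimum count 10) left 15028 genes, which were scaled by TMM and compared by quasi-likelihood tests at a Benjamini-Hochberg adjusted p of 0.05. Every count value thus rests on depths of 15405499 to 17936544, and intervals are 95%. Alternatives were other scalings and filters, DESeq2 1.42.0, limma 3.58.1 after adding 1 or 0.1 to FPKM and taking log2, a gene length correction (loess span 0.3), a fold change of 2 and leaving out each subclone. No GC correction was run. Promoter windows came from RefSeq (GRCr8). Python 3.11.15 and matplotlib 3.10.9 drew the figures.

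The members and lists were chosen with earlier results of these data known. Named genes were the members, *Thop1*, the called genes of the Polycomb and target lists and the most expressed gene per such list that was not called. 1 gene is not reported here. *L3mbtl2* falls under this rule. *Cbx2* had the highest mean CPM of its list in the subclones but not in WT. *Cbx6* and *Cbx8* are named for their ratios to *Cbx7*. The markers named are *Pou5f1*, the called ESC markers, *Col1a1*, *Lama1* and the fibroblast markers at 0 counts.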

Additional observations from a re-analysis of the deposited data

How the results depend on the processing

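Of 120 values of the 10 members under the alternatives, 109 kept their direction and their side of the threshold, 6 lost a call, 2 gained one and 3 turned in sign. Members called fell from 2 to 1 with limma on log2(FPKM + 1), with limma on log2(FPKM + 0.1) and with the gene length correction. Over all 15028 genes tested, these settings called 1908, 1866 and 1874 in that order, against 2072 in the main fit. *Ezh2* was then at -1.08 and -1.17 in limma (adjusted p = 0.0564 and 0.0547) and *Jarid2* at 0.82 after the length correction. *Ring1* turned to 0.042 with library size only. The cause was not tested. Without each subclone in turn, the members called ranged from 0 to 4, the log2 fold change of *Ezh1* from 0.64 to 1.15, of *Ezh2* from -1.22 to -1.13, of *Jarid2* from 1.08 to 1.15, of *Pcgf6* from -0.87 to -0.47 and of *Ring1* from -0.26 to 0.11 (0.11 without #1, 0.02 without #2). Without #3, edgeR called 0 members and 2 had an unadjusted p under 0.05.

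Of all genes, 2072 were called, 4040 at an unadjusted p under 0.05 with a fold change of 2, and 418 (without #3) to 5572 (without #2) with a subclone left out. DESeq2 called 3006 of 13973 genes. Of 15028 genes, limma called 1908 on log2(FPKM + 1) and 1866 on log2(FPKM + 0.1). With no filter, 2198 of 19903 genes were called. The other Polycomb genes called were 7, and 12 in DESeq2, 4 in limma on log2(FPKM + 1) (of 13 at an unadjusted p under 0.05), 11 by the unadjusted rule with a fold change of 2 and 0 to 17 with a subclone left out. The developmental genes called were 1, and 5 in DESeq2, 2 with no filter, 0 in limma on log2(FPKM + 1) (9 at an unadjusted p under 0.05), 2 in limma on log2(FPKM + 0.1), 8 by the unadjusted rule with a fold change of 2 and 0 to 8 with a subclone left out. The germline genes called were 2, and 0 in limma on log2(FPKM + 0.1) (3 at an unadjusted p under 0.05), 4 by the unadjusted rule and 0 to 5 with a subclone left out. The share of calls that were higher in *Thop1*-KO was 62.5%, and 55.6% with upper quartile scaling, 70.0% with library size only, 53.9% in limma on log2(FPKM + 1) and 77.5% without #3. The median log2 fold change of all genes was 0.06, -0.04 and 0.13 under TMM, upper quartile and library size only.

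No paired analysis was possible because the WT group has 1 library. With 1 WT library, a difference between genotypes cannot be told apart from one of that culture or library.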

Other observations

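Near *Asxl2*, the gene of another partner of BAP1 in PR-DUB, the authors' table holds an added locus (chromosome 6, 27835513 to 27863641, plus strand), which they matched to ASXL2. It ends 24156 bases before *Asxl2*, and it was picked after its values were seen. The locus had 22, 20 and 51 counts in #1, #2 and #3 (1.31, 1.13 and 2.84 CPM) and 0 counts in WT. The mean of the subclones, 1.76 CPM, was 8.72-fold a floor of 3 counts set for the WT library, with #3 the highest subclone. *Asxl2* itself was at 2.74, 4.02 and 4.62 CPM in the subclones and 5.32 CPM in WT, so WT lay above them, and it did not pass the test (log2 fold change -0.49, edgeR adjusted p = 0.491). Whether the locus belongs to *Asxl2* was not tested.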
